A study of Mus musculus with 6 samples.

Results

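The genes described here are 10 of the 19505 genes measured: the interleukin-1 (IL-1) family members Il1rn, Il1b and Il18, the inflammatory caspase genes Casp1 and Casp4, the inflammasome sensor genes Nlrp3, Nlrc4 and Aim2, the adaptor gene Pycard and the pore-forming gasdermin gene Gsdmd. They are a fixed set of names, and each was matched by symbol to 1 probe set. RAW264.7, a virus-transformed mouse macrophage cell line, was grown for 3 days in high-glucose medium with serum on polyetheretherketone (PEEK), a polymer used for bone implants. One group of 3 arrays came from cells on the pristine polymer, which was the control, and the other group of 3 from cells on a modified surface of the same polymer; how that surface was made is not stated in the labels. Both groups carry the same cell line, and no stimulus for inflammasomes is named in the labels. Total RNA was labelled with biotin and hybridised to Affymetrix arrays, and the deposited values were log2 signals.

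Inflammasomes are protein complexes that form in the cytosol when a sensor detects microbial products or damage. A sensor such as NLRP3, NLRC4 or AIM2 recruits caspase-1, in most cases through the adaptor ASC, encoded by Pycard, and caspase-1 cuts the precursors of interleukin-1 beta and interleukin-18 and opens the pore-forming protein gasdermin D, which kills the cell by pyroptosis. Caspase-11, encoded by Casp4 in the mouse, binds bacterial lipopolysaccharide in the cytosol and cuts gasdermin D directly. In macrophages Il1b, Nlrp3 and Casp4 are typically induced by inflammatory signals before an inflammasome can act, and the receptor antagonist encoded by Il1rn occupies the IL-1 receptor without signalling. RAW264.7 cells are known to lack the ASC protein.

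Il1rn, Casp4 and Nlrp3 were lower on modified PEEK and Nlrc4 was higher, by limma with Benjamini-Hochberg adjustment over all genes at an adjusted p under 0.05. The share of all genes that passed in that comparison was 10.4%, with 5.15% lower and 5.24% higher. Il1rn fell by 1.41 on the log2 scale and Casp4 by 1.08, a 2.65-fold and a 2.11-fold difference. The changes of Nlrp3 (-0.43) and Nlrc4 (0.62) were smaller, and their calls depended on single arrays while their direction did not: with 1 array left out in turn they were -0.46 to -0.38 and 0.51 to 0.78. The other 6 genes, Il1b, Il18, Casp1, Aim2, Pycard and Gsdmd, did not pass. Since each array measured a whole culture, fewer cells expressing a gene and less of its RNA per cell cannot be told apart.

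The promoters of the genes that fell are shown with that of Casp1, the neighbour of Casp4 on the chromosome. The change of Casp1 was smaller than theirs. Sequences are from RefSeq (build GRCm38.p6), the 250 bases before an annotated start site, read 5′ to 3′ on the gene's strand; 9 of the 10 genes had an entry and Gsdmd had none. Capitals mark matches, on either strand, to an NF-kB motif, the AP-1 motif TGANTCA, the PU.1 core GAGGAA or the interferon regulatory factor (IRF) core AANNGAAA.
Casp4, chr9:5308599-5308848, plus strand: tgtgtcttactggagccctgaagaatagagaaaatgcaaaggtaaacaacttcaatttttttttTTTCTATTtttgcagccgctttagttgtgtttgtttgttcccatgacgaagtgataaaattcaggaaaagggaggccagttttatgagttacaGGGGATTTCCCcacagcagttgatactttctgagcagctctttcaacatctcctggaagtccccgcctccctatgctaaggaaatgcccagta
Casp1, chr9:5298267-5298516, plus strand: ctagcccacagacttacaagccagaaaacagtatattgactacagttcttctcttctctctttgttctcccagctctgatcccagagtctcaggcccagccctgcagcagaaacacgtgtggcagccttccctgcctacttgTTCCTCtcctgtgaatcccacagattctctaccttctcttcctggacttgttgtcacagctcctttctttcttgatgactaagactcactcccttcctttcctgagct
Nlrp3, first start site, chr11:59541319-59541568, plus strand: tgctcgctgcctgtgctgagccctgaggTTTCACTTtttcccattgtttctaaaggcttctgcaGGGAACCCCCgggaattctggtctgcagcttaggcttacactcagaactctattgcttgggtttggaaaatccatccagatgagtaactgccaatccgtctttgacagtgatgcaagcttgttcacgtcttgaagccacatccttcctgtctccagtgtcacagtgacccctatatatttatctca
Il1rn, first start site, chr2:24336610-24336859, plus strand: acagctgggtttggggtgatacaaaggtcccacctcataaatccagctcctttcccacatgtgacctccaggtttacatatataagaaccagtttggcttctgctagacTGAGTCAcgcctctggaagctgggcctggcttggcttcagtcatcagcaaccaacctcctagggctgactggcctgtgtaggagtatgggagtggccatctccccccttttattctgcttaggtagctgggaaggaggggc

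In the Casp4 window the capitals nearer the start site cover overlapping NF-kB matches, GGGGATTTCC and GGGATTTCCC, which begin 93 and 92 bases before it, and an IRF match on the opposite strand begins at 186 bases. In the Nlrp3 window the NF-kB match on the opposite strand, GGGAACCCCC, begins at 186 bases and an IRF match at 222 bases. Il1rn holds the AP-1 match TGAGTCA at 141 bases in the window shown and IRF matches in its windows before the other 2 annotated start sites. Casp1 holds a PU.1 match at 108 bases and neither an NF-kB nor an IRF match. Whether these matches go with the changes was not tested. IRF matches were present for 6 of the 9 genes: Il1rn, Casp4 and Nlrp3, which were lower, and Il1b, Il18 and Pycard, which did not pass. PU.1 matches were also in the windows of Aim2 and Pycard. The second Nlrp3 window, not shown, held PU.1 and IRF matches and no NF-kB match.

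An NF-kB match was present for 2 of the 9 genes with a window, Casp4 and Nlrp3, in 3 of 13 windows and in 3.9% of the 32851 windows of the same length in the table. The IRF core was in 9 of the 13 windows and in 21.3% of all windows, and it can lie inside the longer interferon-stimulated response element, which was in 0 of the 13 and in 5.09% of all. The PU.1 core was in 4 of the 13 windows and 23.3% of all, AP-1 in 1 and 6.75%, and the STAT motif TTCNNNGAA in 0 and 7.02%. Windows of 1 gene can overlap, as those of Casp4 and Il1rn do. The window of Nlrc4, which was higher on modified PEEK, is not shown and held none of these motifs. These matches describe letters in the windows, and factor binding was not measured.

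Il1rn encodes the secreted and intracellular forms of the IL-1 receptor antagonist. Its log2 signal was 9.74, 9.39 and 9.84 on the 3 pristine arrays and 8.38, 8.11 and 8.26 on the 3 modified arrays. All 3 modified arrays lay below all 3 pristine arrays, with 1.00 between the closest arrays of the groups. The means were 9.66 ± 0.24 and 8.25 ± 0.14 (SD, n = 3), and the change of -1.41 ± 0.14 (SE) had a limma 95% interval from -1.73 to -1.09 (adjusted p = 0.000615). When 1 array was left out in turn the change stayed between -1.54 and -1.32, and it passed in 6 of 6 such fits.

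Il1b, the gene of the main agonist that this antagonist opposes, was at a log2 signal of 3.45, 3.24 and 3.32 on pristine and 3.18, 2.99 and 3.72 on modified PEEK. A background level of 3.72 was taken as the 95th percentile of the mean signals of 1412 genes for odorant and pheromone receptors, which macrophages mostly do not express. Both Il1b means, 3.34 ± 0.11 and 3.30 ± 0.38 (SD, n = 3), were below it, so no fold is given. The highest modified array, replicate 3, was just above the background level, and the groups overlapped. The interval of the change ran from -0.45 to 0.38 (limma adjusted p = 0.94).

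Il18, encoding a cytokine that macrophages commonly hold as a ready-made precursor, was above the background on every array. Its log2 signal was 6.53, 6.65 and 6.63 on pristine and 6.77, 6.65 and 6.88 on modified PEEK. The groups met at 6.65, where the second arrays of both surfaces lay. The change of 0.16 had an interval from -0.0671 to 0.39 and did not pass (limma adjusted p = 0.406).

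**Figure D1:**
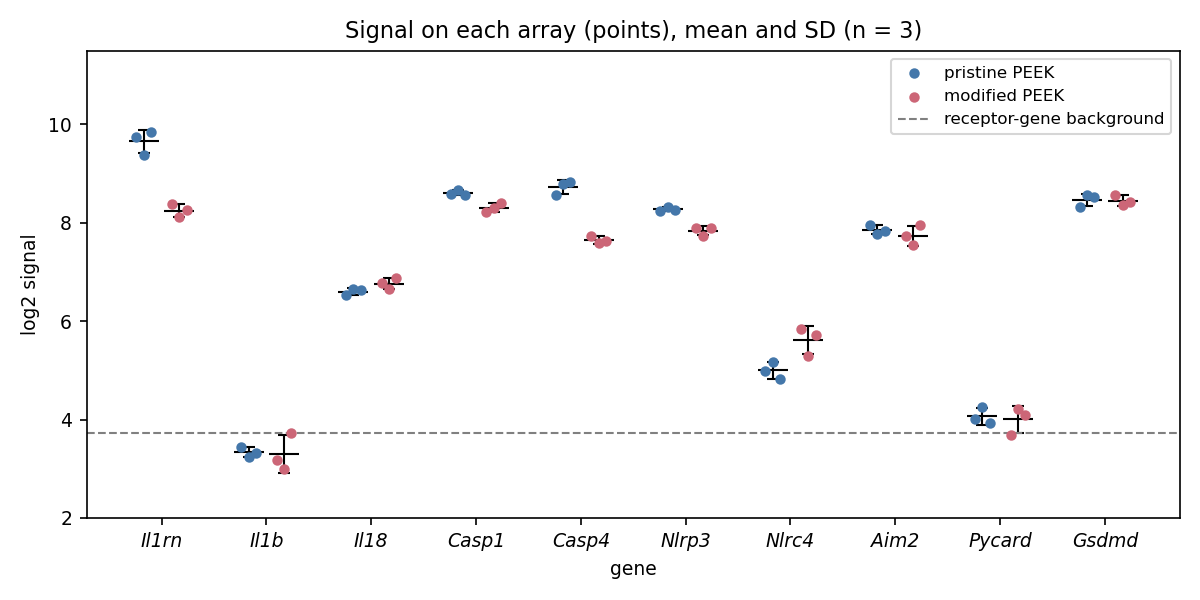
Log2 signal (vertical axis) of the 10 genes (horizontal axis) on each of the 3 pristine PEEK and 3 modified PEEK arrays; points are arrays, horizontal marks are means, bars are SD, and the dashed line is the receptor-gene background at 3.72. The groups are apart for Il1rn, Casp1, Casp4, Nlrp3 and Nlrc4, and 5 of the 6 Il1b arrays lie below the background.

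Among the caspases, Casp4 showed the larger difference. Its log2 signal was 8.57, 8.78 and 8.83 on pristine and 7.74, 7.59 and 7.63 on modified PEEK. All 3 modified arrays lay below the pristine arrays, with 0.83 between the closest arrays of the groups. The means were 8.73 ± 0.14 and 7.65 ± 0.08 (SD, n = 3), a change of -1.08 ± 0.11 (SE) with an interval from -1.32 to -0.83 (limma adjusted p = 0.000615). Leaving out any 1 array kept the call, with an adjusted p of at most 0.00639.

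Casp1, which encodes the caspase that matures interleukin-1 beta, was at 8.59, 8.66 and 8.57 on pristine and 8.22, 8.29 and 8.40 on modified PEEK. Its groups did not overlap, and the closest arrays were 0.17 apart. The change of -0.30 ± 0.09 (SE) had an unadjusted interval from -0.52 to -0.0867, but it did not pass after adjustment over all genes (limma adjusted p = 0.0878). It passed in 4 of 12 other settings, among them an intensity trend in the variance model (adjusted p = 0.00554), and in 0 of the 6 fits without 1 array.

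Casp1 and Casp4 are neighbours on chromosome 9, followed by Casp12. The log2 difference between Casp4 and Casp1 within each array was -0.0275, 0.12 and 0.27 on pristine and -0.49, -0.70 and -0.77 on modified PEEK. It was lower on every modified array than on any pristine array. The shift was -0.77 (p = 0.1 by a two-sided exact permutation test, the lowest value that 3 arrays against 3 allow). The Casp4 groups were 0.83 apart, more than the whole range of Casp1 (8.22 to 8.66). Their difference therefore had to separate the surfaces, and the test adds nothing to the results for Casp4 and Casp1. Of 2 such pairs tested, the value adjusted over both was also 0.1. Casp12 (1.95 ± 0.20 and 1.93 ± 0.19; SD, n = 3) was under the background on either surface, as did Gria4 on the other side of Casp1 (1.86 ± 0.08 and 1.77 ± 0.18).

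The sensor genes did not share a direction. Nlrp3, whose product responds to ion fluxes and membrane damage, was at 8.23, 8.32 and 8.27 on pristine and 7.89, 7.73 and 7.90 on modified PEEK. Its groups were 0.34 apart at their closest arrays. The change was -0.43 ± 0.09 (SE; limma adjusted p = 0.022), a 1.35-fold difference. Nlrp3 no longer passed when pristine PEEK replicate 1 (adjusted p = 0.0664), 2 (0.0943) or 3 (0.0865), or modified PEEK replicate 2 (0.0568) or 3 (0.0529), was left out. It was also lost with arrays centred on their medians (0.0555), with the replicate number as a block (0.0849) and when scaled to the poly-A spikes (0.41), where the change was -0.19.

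Nlrc4 acts with the NAIP receptors, which bind bacterial flagellin and secretion-system proteins. Its log2 signal was 4.99, 5.18 and 4.83 on pristine and 5.84, 5.29 and 5.72 on modified PEEK. Modified replicate 2 was the lowest of its group and lay 0.12 above the highest pristine array. The means were 5.00 ± 0.17 and 5.62 ± 0.29 (SD, n = 3), a change of 0.62 ± 0.16 (SE) and 1.54-fold (limma adjusted p = 0.046). The call depended on single arrays: it held with modified PEEK replicate 2 left out (adjusted p = 0.0126), but not with modified PEEK replicate 1 (0.115) or 3 (0.155) or pristine PEEK replicate 1 (0.124), 2 (0.0628) or 3 (0.158) left out. With the replicate number as a block the adjusted p was 0.112.

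Within each array the log2 difference between Nlrc4 and Nlrp3 was -3.24, -3.14 and -3.43 on pristine and -2.05, -2.44 and -2.17 on modified PEEK. The shift was 1.05 (p = 0.1 by the same exact test, its lowest possible value). Nlrp3 was lower and Nlrc4 higher on every modified array, so their difference had to separate the surfaces. The test therefore adds nothing to the results of the 2 genes. Aim2, the sensor gene for cytosolic DNA, was at 7.97, 7.78 and 7.84 on pristine and 7.73, 7.54 and 7.95 on modified PEEK. These arrays overlapped, and the change of -0.12 had an interval from -0.41 to 0.17 (limma adjusted p = 0.649).

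Pycard, the ASC adaptor gene, was near the background on both surfaces. Its log2 signal was 4.02, 4.26 and 3.92 on pristine and 3.69, 4.21 and 4.10 on modified PEEK, where replicate 1 fell below the background. The change of -0.0621 had an interval from -0.42 to 0.30 (limma adjusted p = 0.875). Gsdmd, encoding the pyroptotic pore, was at 8.32, 8.56 and 8.52 on pristine and 8.57, 8.37 and 8.42 on modified PEEK. Its groups overlapped over most of their range, and the change of -0.0144 had an interval from -0.26 to 0.23 (limma adjusted p = 0.962).

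**Figure D2:**
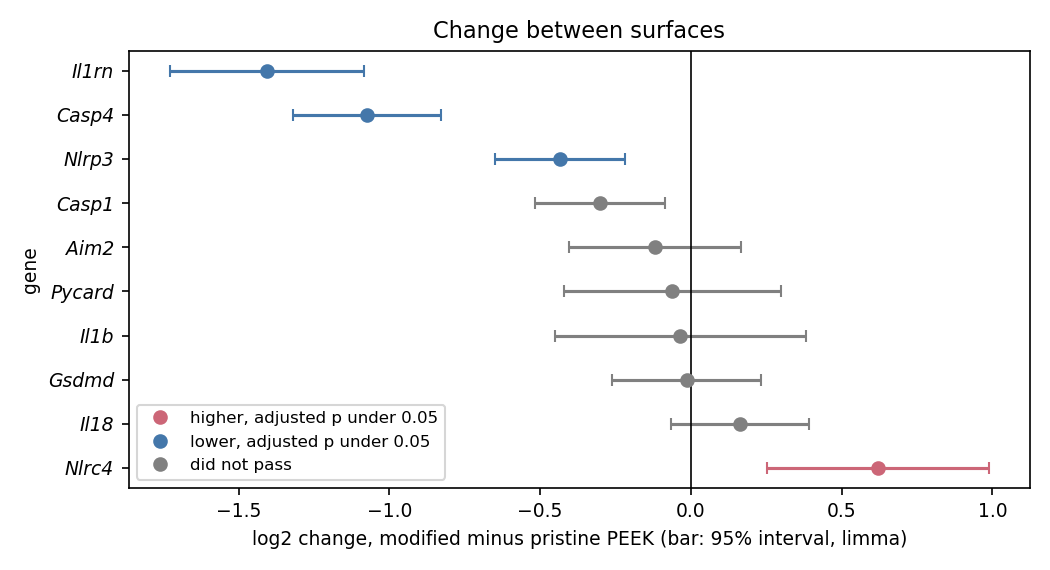
Log2 change, modified minus pristine PEEK (horizontal axis), of the 10 genes (vertical axis), with limma's unadjusted 95% interval as a bar; colours mark genes that passed as lower or higher. The intervals of Il1rn (-1.73 to -1.09) and Casp4 (-1.32 to -0.83) lie farthest from 0, and that of Casp1 excludes 0 although its adjusted p did not pass.

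Of the 10 genes, 3 were lower and 1 was higher, and the median change was -0.0911, beside 0.0088 over all genes. The groups did not overlap for 5 of the 10 genes, while this held for 28.8% of all genes. When any pristine PEEK array or modified PEEK replicate 3 was left out, 2 genes passed, Il1rn and Casp4. With the arrays scaled to the poly-A spike-in probe sets the median of all genes moved to 0.256. Il1rn (-1.16, adjusted p = 0.000986), Casp4 (-0.83, adjusted p = 0.00356) and Nlrc4 (0.87, adjusted p = 0.00601) then passed by limma. Of all 19505 genes, 290 passed as lower and 1575 as higher in that fit. On that scale Il1b (0.21), Aim2 (0.13), Pycard (0.19) and Gsdmd (0.23), none of which passed on either scale, had a positive change; the scaling adds the same amount to the change of every gene, and relative to all genes their changes were -0.0448, -0.13, -0.0709 and -0.0232.

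**Figure D3:**
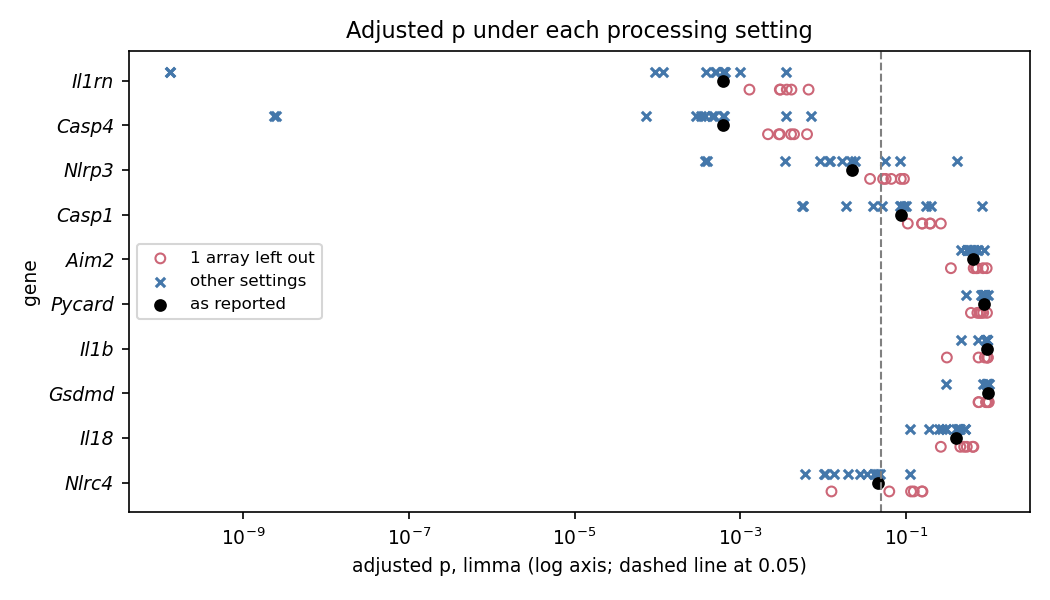
Limma adjusted p (horizontal log axis) of the 10 genes (vertical axis) as reported (black), with 1 array left out (circles) and under the other settings (crosses); the dashed line is 0.05. Il1rn and Casp4 lie below 0.05 under every setting run, while the points of Nlrp3, Nlrc4 and Casp1 lie on both sides of it.

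The rest of the IL-1 and inflammasome pathway was read from a list of 60 genes, of which 52 were measured and the others were not analysed here. By limma 8 of the 52 genes (15.4%) were lower on modified PEEK and 0 were higher, beside 5.15% lower and 5.24% higher of all genes. At an unadjusted p under 0.05, 13 were lower and 3 higher, beside 2218 lower and 2206 higher of all 19505 genes. The median change was -0.0580, beside 0.0088 over all genes. Scaled to the spikes, 0 were lower and 3 were higher, beside 290 lower and 1575 higher of all 19505 genes. The 3 were the sensor gene Nlrp6 (0.64), the NLRP3 partner kinase gene Nek7 (0.59) and the gasdermin gene Gsdma (0.60). The list median was then 0.19, which is -0.0668 relative to all genes. Omitting pristine PEEK replicate 1, pristine PEEK replicate 3 or modified PEEK replicate 3 left 4 genes lower, and omitting pristine PEEK replicate 2 left 3.

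Of 7 further ligand genes 0 passed by limma, beside 10.4% of all genes, and 0 had an unadjusted p under 0.05; 5 of the 7 lay below the background on both surfaces. Il1a, next to Il1b on the chromosome and encoding the other IL-1 agonist, had signals of 2.46 ± 0.08 and 2.44 ± 0.13 (SD, n = 3), under the background on either surface. Il33, an alarmin gene, was at 4.48 ± 0.10 and 4.36 ± 0.40 (limma adjusted p = 0.801). Of 8 receptor and decoy genes 0 passed, beside the same 10.4% of all genes, and 1 had an unadjusted p under 0.05. On both surfaces 4 of the 8 lay below the background. Il1r1, the signalling receptor to which the Il1rn product binds, was under the background too (2.66 ± 0.14 and 2.70 ± 0.16). Il1rap, the co-receptor gene, was above it (5.78 ± 0.15 and 5.72 ± 0.17; limma adjusted p = 0.838).

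Downstream of the receptors, 2 of 9 signalling genes were lower, beside 5.15% of all genes. Tollip, an inhibitory adaptor gene, fell by 0.46 (limma adjusted p = 0.013), and Tab2, which links TRAF6 to the kinase TAK1, fell by 0.37 (adjusted p = 0.0306). Tab2 passed in 0 of the 6 fits that left out an array (adjusted p between 0.0597 and 0.118), and Tollip did not pass in those omitting pristine PEEK replicate 1 (0.0604) or 2 (0.0584), or modified replicate 3 (0.0504). Irak3, a brake on the same receptors, was at 8.70 ± 0.08 and 8.52 ± 0.04 (SD, n = 3; limma adjusted p = 0.294).

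Among 8 further sensor genes, 2 were lower, Naip2 and Naip6, beside 5.15% of all genes. Both encode receptors that act through NLRC4. Naip2 went from 8.06 ± 0.06 to 7.61 ± 0.05 (SD, n = 3; limma adjusted p = 0.0159), and Naip6 from 6.76 ± 0.05 to 6.33 ± 0.08 (adjusted p = 0.0212). Naip5 was at 7.36 ± 0.02 and 6.95 ± 0.22 and did not pass (limma adjusted p = 0.083). The Naip genes are close copies of each other, so how far their probe sets share targets is uncertain. Nlrc4 thus passed in the opposite direction to these 2 partner genes. Naip2 did not pass when pristine PEEK replicate 2 (adjusted p = 0.0769) or 3 (0.0664) was left out, and Naip6 passed only in the fit that omitted modified PEEK replicate 1, its adjusted p reaching 0.101 in the others.

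Of 10 genes that license, trigger or restrain inflammasomes, 1 passed, beside 10.4% of all genes. Gbp2, an interferon-induced GTPase gene whose product acts on intracellular bacteria, was at 3.93, 4.30 and 4.02 on pristine and 3.15, 3.68 and 3.38 on modified PEEK. All 3 modified arrays lay below the background, so Gbp2 was at least 1.29-fold lower (limma adjusted p = 0.0304). It did not pass when pristine PEEK replicate 1 (adjusted p = 0.0517), 2 (0.103) or 3 (0.0798), or modified PEEK replicate 1 (0.0762) or 3 (0.105), was left out. Txnip, a thioredoxin-binding protein gene linked to NLRP3, was at 10.90 ± 0.04 and 10.74 ± 0.03 (SD, n = 3; limma adjusted p = 0.322).

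Of 10 cell death genes, 3 were lower, beside 5.15% of all genes. Mlkl, the pore-forming effector gene of necroptosis, went from 8.15 ± 0.03 to 7.38 ± 0.15 (SD, n = 3), a 1.71-fold difference (limma adjusted p = 0.00241). Ninj1, which encodes the protein that ruptures the plasma membrane in dying cells, went from 10.22 ± 0.07 to 9.59 ± 0.08 (1.55-fold lower, adjusted p = 0.0042). Zbp1, a sensor gene for Z-form nucleic acids, went from 5.01 ± 0.05 to 4.39 ± 0.11 (1.54-fold lower, adjusted p = 0.00507). These 3 genes passed in each of the 6 fits without 1 array. Scaled to the spikes their changes were -0.53, -0.38 and -0.37, and none passed by limma (adjusted p = 0.0648, 0.161 and 0.172). Relative to all genes on that scale the changes were -0.78, -0.64 and -0.63. Casp8 did not pass (9.66 ± 0.05 and 9.60 ± 0.0047; adjusted p = 0.738).

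**Figure D4:**
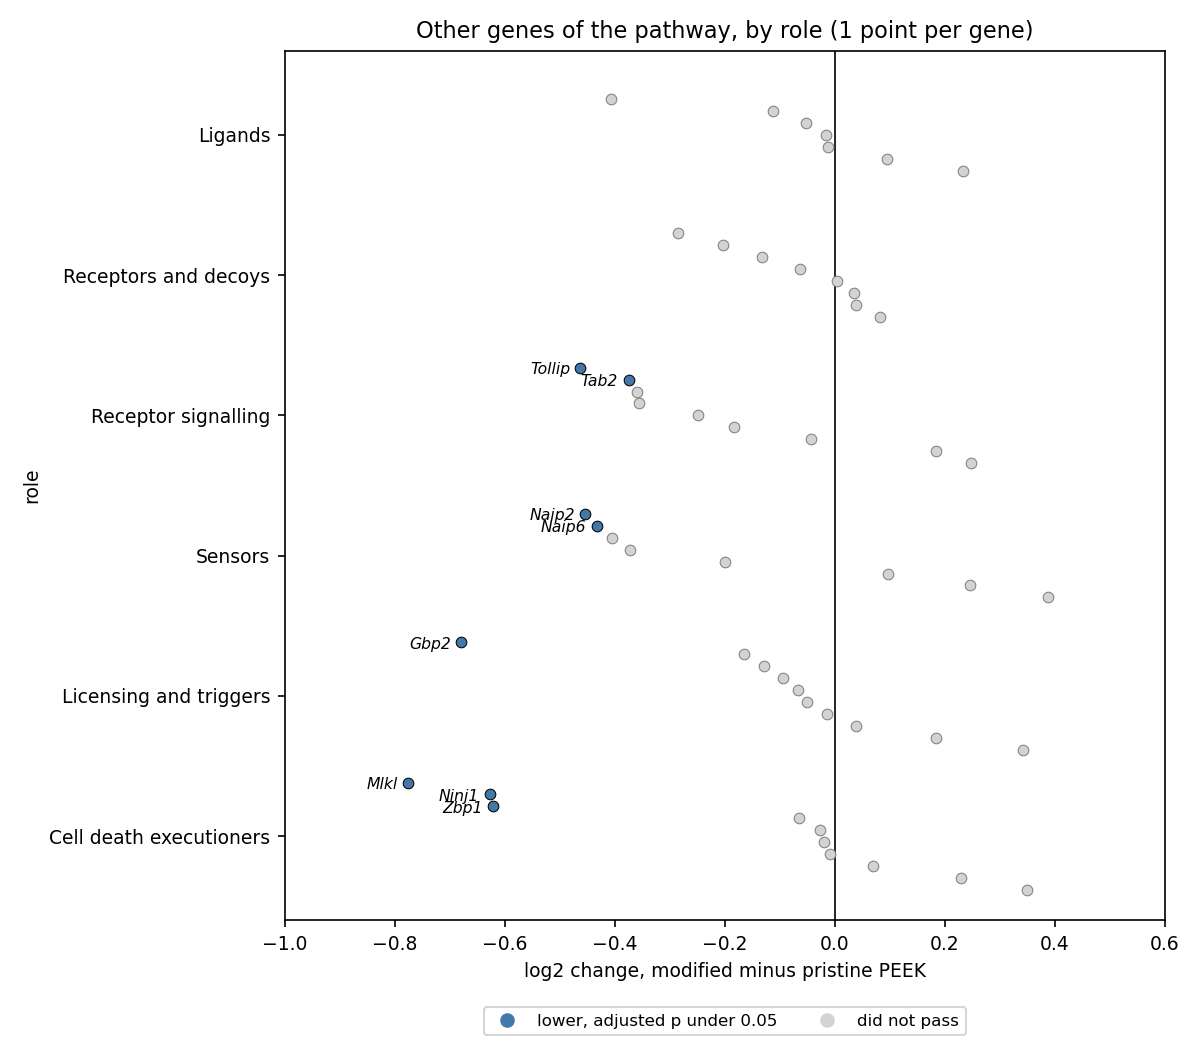
Log2 change, modified minus pristine PEEK (horizontal axis), of the 52 measured pathway genes, 1 point each, by role (vertical axis); blue points passed as lower. The 8 genes that passed lie between -0.78 and -0.37, and no ligand or receptor gene is among them.

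The genes whose centred profiles over the 6 arrays lay nearest to a member that passed were found among all genes. Nearest to Il1rn were Acp5, encoding tartrate-resistant acid phosphatase (root mean square distance 0.123 log2), Kdm5b (0.134), a histone demethylase gene, and Gvin1 (0.135), an interferon-inducible GTPase gene. Acp5 went from 7.92 ± 0.05 to 6.51 ± 0.21 (SD, n = 3). Nearest to Casp4 were the complement regulator gene Cd59a (0.0391), the vesicle fusion gene Stx11 (0.0474) and Paqr3 (0.0705). Nearest to Nlrp3 were the tetraspanin gene Cd63 (0.0243), the adaptor gene Lcp2 (0.0271) and the kinase gene Riok3 (0.0281). Nearest to Nlrc4 were Wdr62 (0.0503), Per3 (0.0626) and Fut10 (0.0760). By this measure, genes with a change of like size lie near each other.

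Of the labelled cell type, all 9 measured macrophage markers were above the background on both surfaces, and their summed linear signal was 15790 to 16160 on pristine and 15670 to 15880 on modified PEEK. Such a sum is weighted toward the brightest genes. Adgre1 was higher (0.54) and Itgam (-0.59) and Fcgr1 (-0.85) were lower, beside 5.24% higher and 5.15% lower of all genes. Of the 9 macrophage markers, 6 had an unadjusted p under 0.05, beside 4424 of all 19505 genes. Of 6 osteoclast markers, 3 were lower, beside 5.15% of all genes: Acp5, Mmp9 and Dcstamp. Mmp9 was below the background on modified PEEK (3.30 ± 0.33; SD, n = 3), so it was at least 1.48-fold lower. Scaled to the spikes Mmp9 did not pass (limma adjusted p = 0.0605). Ctsk (-0.29) and Ocstamp (0.33), which has the opposite sign, did not pass by limma. The summed linear signal of all 6 was 691 to 695.7 on pristine and 354.8 to 438.5 on modified PEEK; Calcr, a defining marker of mature osteoclasts, lay below the background on both surfaces, and the part of these markers in the results for Il1rn and the other genes was not tested. Of 28 measured markers of neutrophils, T cells, B cells, fibroblasts, epithelium and endothelium, 0 passed by limma, beside 10.4% of all genes. An unadjusted p under 0.05 was found for 3 of the 28, and 18 lay below the background on both surfaces. The array medians over genes were between 4.98 and 5.10, and correlations between arrays were 0.991 to 0.995 within and 0.985 to 0.988 between surfaces. The poly-A spike signal was 6.96 ± 0.15 on pristine arrays and 6.71 ± 0.14 on modified arrays (SD, n = 3), a difference with p = 0.2 by a two-sided exact permutation test that cannot go below 0.1. Whether the 3 samples of a surface were separate cultures is not stated, so the p-values cover only the spread among these arrays, part of which may be technical.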

How the data were processed

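The authors deposited log2 signals per probe set; the submitters' processing notes list RMA with no version or role, and the log2 scale was inferred from values between 0.941 and 12.4. The same amount of RNA, 250 ng, is given for each sample, so a shift in RNA content per cell would not show. Quantile normalization, if applied, would hide it too. Of 29129 features, 19572 probe sets named 1 gene each in the platform annotation; the brightest on average stood for its gene, giving 19505 genes. No genome build is named in the labels. The test was limma 3.58.1 (R 4.3.3; lmFit, eBayes, no trend, two-sided, all 6 arrays, no covariate, no filter), with Benjamini-Hochberg adjustment over all genes; the fit had 4 residual and 4.09 prior degrees of freedom. It was tested on simulated data. The number of arrays limits the precision. Named were all 10 members, pathway genes that passed, the brightest of each role that did not, and the 3 nearest profiles of each member that passed. Il1a, Il1r1, Casp12, Gria4, Nlrp6, Nek7, Gsdma and the cell type markers named were picked after their values were seen. The IRF core was searched after the longer interferon motif had matched no member. Members and lists were chosen with earlier results of these data known. Alternatives covered normalization, filters on dim genes, probe-set choice, the variance model, array weights, a replicate block and leaving out each array.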

Additional observations from a re-analysis of the deposited data

How the results depend on the processing

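Il1rn and Casp4 passed under all 18 alternatives run for each. For Nlrp3 the adjusted p was 0.0555 with array medians centred, 0.41 scaled to the poly-A spikes and 0.0368 to 0.0943 with 1 array left out; for Nlrc4 it was 0.0126 to 0.158 with 1 array left out. Casp1 passed with the dimmest 50% of genes left out (0.019), with genes below background left out (0.0403), and with an intensity trend (0.00554; 0.00566 with robust fitting). The genes passing numbered 3305 with a trend (3282 robust), against 2027, and 1142 to 1863 with 1 array left out; members passing were then 2 to 3 and pathway genes 3 to 8. Scaled to the spikes 3 pathway genes passed, all higher, beside 1865 of all genes. With background genes left out 13 of 38 passed (10 lower, 3 higher), beside 2660 of 13229. With a trend 14 passed (13 lower, 1 higher), and the same with robust fitting. With array weights 13 passed (10 lower, 3 higher), beside 2473 of all genes. Filtered fits adjust over fewer genes; the cause of the other differences was not tested. The replicate numbers showed no sign of pairing (correlations of deviations -0.17, -0.16 and 0.0685); with the replicate block 1268 genes, 2 members and 4 pathway genes passed, with an adjusted p of 0.0849 for Nlrp3 and 0.112 for Nlrc4. Signal over background limits Il1b, Pycard, Gbp2 and Mmp9.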
